A study of Mus musculus with 8 samples.

Results

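RNA-seq libraries from mouse embryonic stem cells (ESCs) depleted of Hira were compared directly with libraries from ESCs depleted of Ubn2, without passing through the control. The 2 libraries labelled Hira knockdown and the 2 labelled Ubn2 knockdown were taken, 4 of the 8 libraries of the series, and their counts were joined by gene symbol. The 2 control libraries entered no test here and are given only as a level beside the depletions. E14 ESCs (strain label 12910la) were grown in 15% serum and 10 ng/ml LIF on gelatin and transfected with 1000 ng of a pSuper puro plasmid expressing an shRNA against Hira or Ubn2. The control cells are labelled wild type, and the study describes its control shRNA as directed against luciferase. According to the labels, puromycin at 1 µg/ml was started 24 h after transfection and kept for 3 days in all groups. The study lists more than 1 shRNA for each gene and which of them was used for sequencing is not stated, so each group stands for a transient knockdown in a single cell line. The labels do not say whether the 2 libraries of a group came from separate cultures, so p-values measure only the spread between these samples, which may be technical.

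The HIRA complex is a histone chaperone that places the variant histone H3.3 into chromatin independently of DNA synthesis. Hira is its scaffold, Ubn1 and Ubn2 are alternative subunits that contact H3.3, Cabin1 is a further subunit, and Asf1a hands over H3.3-H4. The comparison asks where depletion of the scaffold and depletion of a single ubinuclein subunit leave the ESC transcriptome different. Throughout, a log2 fold difference is Hira depletion minus Ubn2 depletion, so positive values are higher in Hira-depleted ESCs. A level is in CPM, the read count of a gene scaled to the total of its library. A gene was called when its fold difference was over 1.5 and its Benjamini-Hochberg adjusted p in edgeR's quasi-likelihood test was under 0.05. All folds and adjusted p-values below are from this fit of 2 against 2 libraries, and ± is the standard error.

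Total counts on genes were 31175762 and 20380337 in the Hira libraries and 21755772 and 19710040 in the Ubn2 libraries. At these depths 3 counts correspond to 0.0908 to 0.153 CPM, a limit that reflects counting error alone. Across genes, the correlation of log2 CPM was 0.994 within the Hira pair and 0.993 within the Ubn2 pair, and the counts of each pair differed by more than sampling noise (chi-square per degree of freedom 8.63 and 13.9). ESC markers summed to between 4720 and 4980 CPM in the 4 libraries. The Ubn2 libraries also held transcripts of heart muscle, blood and fibroblast genes, and held more of them in replicate 1 than in replicate 2. Their values are given with the muscle genes below.

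Each targeted transcript was the lower one in its own libraries. Hira (chr16:18877037-18970309, plus strand, GRCm38) was at 10.0 and 10.4 CPM after its own depletion and at 109 and 105 CPM after Ubn2 depletion, with 89.4 and 97.6 CPM in control ESCs. The groups did not overlap, and the log2 fold difference was -3.38 ± 0.091 (adjusted p = 9.18e-12). Ubn2 (chr6:38433950-38524825, plus strand) was at 59.7 and 63.4 CPM after Hira depletion, 30.1 and 24.6 CPM after its own depletion and 50.1 and 51.7 CPM in control ESCs. Its difference was 1.17 ± 0.10 (adjusted p = 1.43e-06). The knockdowns differed in depth at the RNA level. Mean Hira was 10.2 CPM after its own depletion against 93.5 CPM in control ESCs, and mean Ubn2 27.3 against 50.9 CPM. In the differences below, the depleted subunit and the depth of its knockdown cannot be told apart. Gm28539, a gene model that overlaps Hira, moved with it (-2.83).

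Among the other partners of the complex, only Ubn1 was called. It was at 68.8 and 67.2 CPM in Hira-depleted and 42.7 and 40.3 CPM in Ubn2-depleted ESCs, around 53 and 44.1 CPM in control ESCs (0.72 ± 0.082, adjusted p = 1.6e-05). Both ubinuclein transcripts were thus lower after Ubn2 depletion than after Hira depletion. Cabin1 (-0.10), Asf1a (-0.21), Asf1b (-0.15), Daxx (-0.28), Atrx (-0.36), Srcap (0.11) and Zbtb2 (-0.37) were not called. The H3.3 genes H3f3a (437 and 440 against 451 and 454 CPM) and H3f3b (577 and 608 against 706 and 688 CPM) differed by -0.039 and -0.23 and were not called either.

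In all, of 18563 genes tested, Hira-depleted ESCs had higher levels of 2222 (12%) and Ubn2-depleted ESCs of 1042 (5.61%), 3264 genes (17.6%) in either direction. The median log2 fold difference of all genes tested was 0.013. Genes higher after Hira depletion differed by a median of 2.16-fold, 1310 of them over 2-fold and 279 over 4-fold. Genes higher after Ubn2 depletion differed by a median of 1.82-fold, 403 over 2-fold and 121 over 4-fold. The direction of the calls moved with the level of the gene. Among the 3713 genes with the lowest levels, 14.8% were higher after Hira depletion and 4.69% after Ubn2 depletion, whereas among the 3713 with the highest levels, above 62.7 CPM, the shares were 2.05% and 4.26%. The median log2 fold difference of these 2 sets was 0.22 and -0.11. The calls also moved with transcript length, with 7.02% and 7.53% among the 3705 shortest genes and 13.4% and 4.32% among the 3704 longest. Among protein-coding genes 13.2% were higher after Hira and 5.47% after Ubn2 depletion, and among lncRNAs 8.48% and 5.98%. Medians of the autosomes and the X chromosome lay between -0.041 on chromosome 11 and 0.096 on chromosome 12, a narrow range beside the folds of the called genes.

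**Figure D1:**
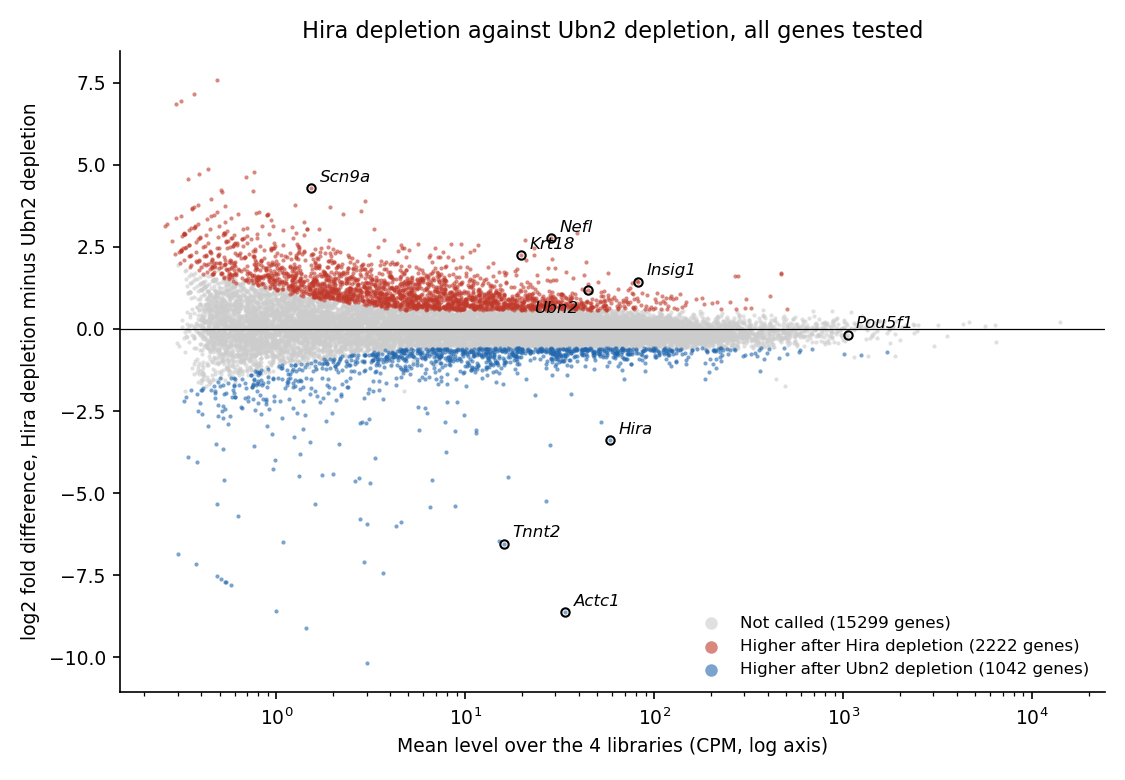
Log2 fold difference between Hira and Ubn2 depletion (vertical axis) against the mean level over the 4 libraries (horizontal axis, CPM on a log scale), 1 point per gene tested. Red points are the 2222 genes higher after Hira depletion and blue points the 1042 genes higher after Ubn2 depletion; Actc1 and Tnnt2 lie farthest down among the labelled genes, and Pou5f1, at a high level, lies near 0.

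The control level shows on which side of the control cells, which were transfected and selected in the same way, these genes sit. Of the 2222 genes higher after Hira depletion, the mean of the control libraries lay between the 2 depletion means for 1498 (67.4%), above both for 338 and below both for 386. Of the 1042 genes higher after Ubn2 depletion, it lay between for 607 (58.3%) and below both for 330 (31.7%), with 105 above both. Over all genes tested the control mean lay between the depletions for 33.4%. For most called genes the depletion means thus stood on opposite sides of the control mean, by any margin, however small. Called genes were picked for a wide gap between the depletion means. A control mean falls within a wide gap more often, so the higher shares of called genes are not a result about the control level.

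Fixed lists of genes were described by their counts and medians beside these shares for all genes. A list member that is near 0 in a group enters the test through the other group, so counts over tested members describe the list and do not test it. The shares for all genes are not matched to the level of a list. Toward Hira depletion the share was 14.8% among the genes with the lowest levels and higher still among genes of the next levels. Whether a list of low-level genes exceeds other genes of the same level was not tested. The medians ran from 1.58 for neurofilaments to -1.24 for muscle contraction. Medians of 5 lists changed sign under at least 1 alternative setting, so no direction is given for them. These lists were Hox cluster genes, clustered protocadherins, germline and meiosis genes, imprinted genes, and primed epiblast and primitive streak.

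**Figure D2:**
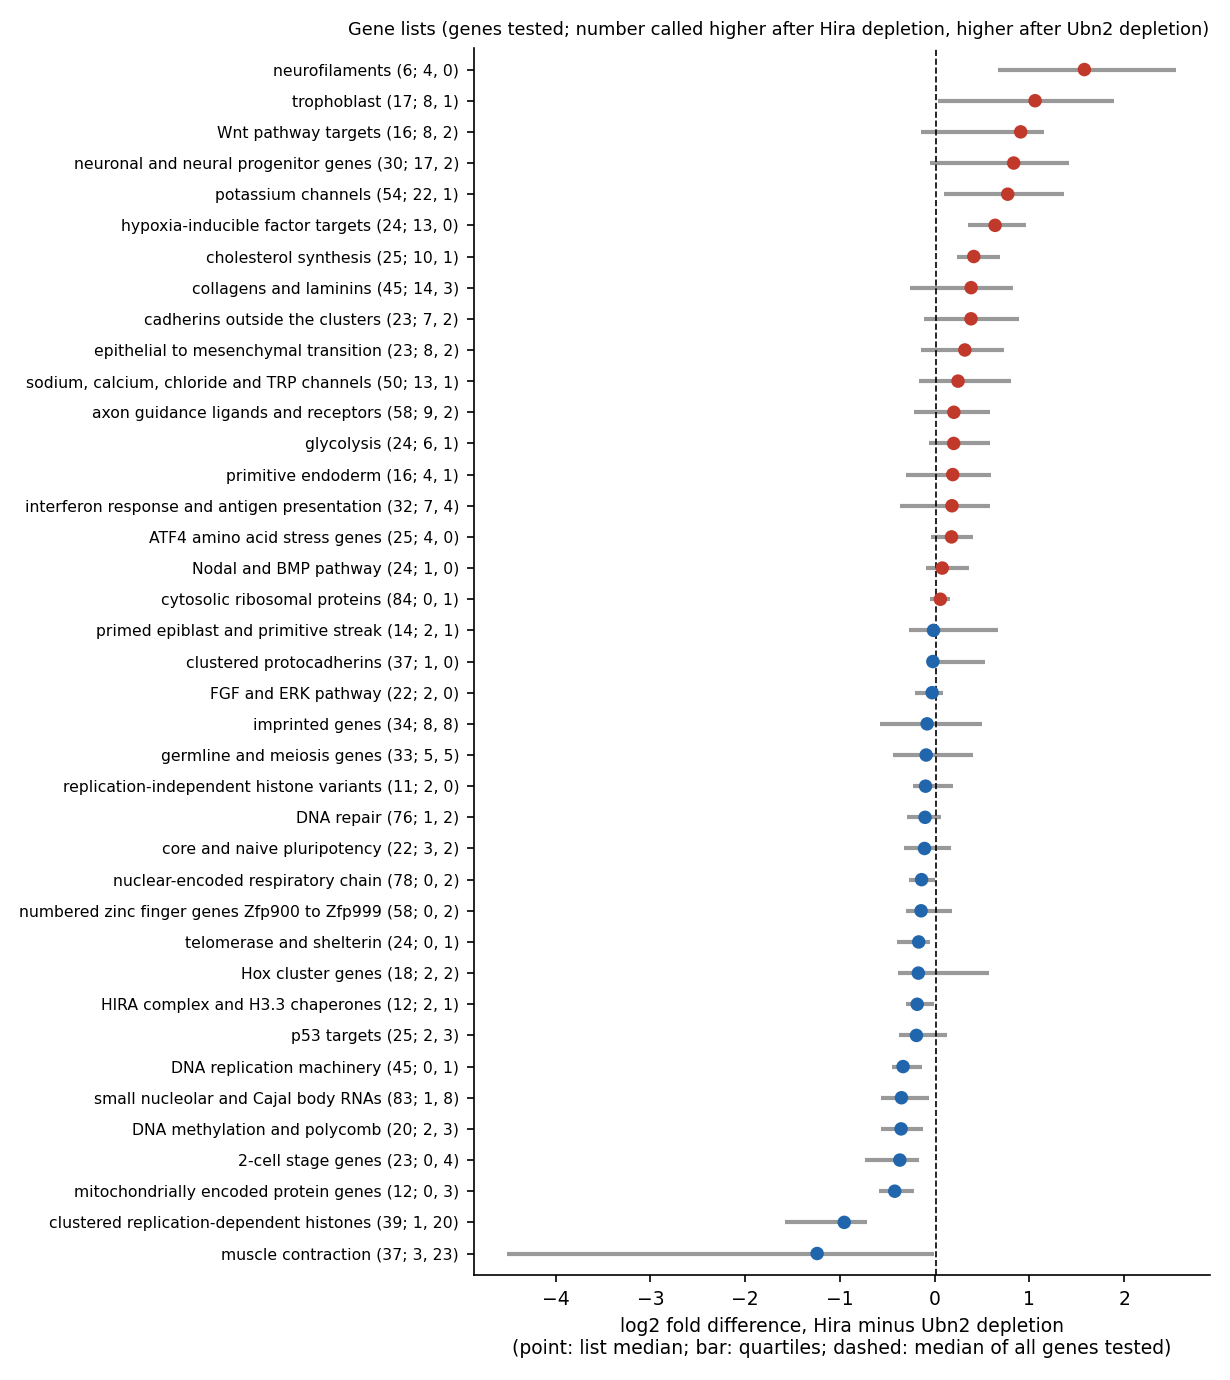
Median log2 fold difference (points) and quartiles (grey bars) of the tested members of 39 gene lists, with the number tested and the numbers called in each direction in brackets; the dashed line is the median of all genes tested, 0.013. Neurofilaments, trophoblast and Wnt pathway targets stand at the Hira side, and muscle contraction and clustered histones at the Ubn2 side.

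Genes of neurons were higher in Hira-depleted ESCs. Neurofilaments, the intermediate filaments of axons, were called in 4 of 6 tested members, all higher after Hira depletion, with a list median of 1.58. The light chain Nefl was at 51.3 and 47.9 CPM after Hira depletion and 7.03 and 7.7 CPM after Ubn2 depletion, either side of 12.3 and 13.9 CPM in control ESCs (2.76 ± 0.12, adjusted p = 1.35e-09). The medium chain Nefm was at 35.8 and 35.6 CPM against 5.15 and 5.76 CPM, with 9.78 and 11.0 CPM in control ESCs (2.72 ± 0.13, adjusted p = 4.5e-09). Both genes showed about the same fold and the same order of groups, with no overlap between any of the groups. Nefl (chr14:68083863-68089095, plus strand) lies within the annotated span of Nefm (chr14:68082590-68124846, minus strand). The strand setting of the counting is not given, so the counts of these 2 genes may not be independent.

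For peripherin and the heavy chain, Ubn2 depletion stayed near the control level. Peripherin, Prph, which is found in peripheral neurons, was at 81.5 and 57.3 CPM against 17.3 and 16.9 CPM, with 18.2 CPM in both control libraries (2.03 ± 0.14). The heavy chain Nefh was at 58.2 and 68.6 CPM against 26.8 and 31.1 CPM, with 22.1 and 26.6 CPM in control ESCs (1.13 ± 0.10). Nestin, Nes, a filament of neural progenitors, was not called at 42.5 and 42.2 against 31.9 and 27.5 CPM (0.52 ± 0.10), although both depletions were above the 15.8 and 16.1 CPM of control ESCs. Internexin, Ina, at 31.8 and 34.4 against 30.1 and 31.8 CPM, differed by only 0.10 ± 0.10.

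Of 40 neuronal and neural progenitor genes, 30 were tested, and 17 (56.7%) were higher after Hira and 2 (6.67%) after Ubn2 depletion (median 0.83). Cytoskeletal and growth cone genes had the smallest adjusted p. Dpysl3, a collapsin response mediator, was at 58.9 and 69.7 CPM against 23.8 and 17.8 CPM (1.63 ± 0.12, adjusted p = 4.44e-07). The neuronal tubulin Tubb3 was at 158 and 169 CPM against 77.1 and 86.6 CPM, with 86.5 and 91.4 CPM in control ESCs (1.01 ± 0.079, adjusted p = 5.08e-07). For both genes the Hira libraries stood above the control libraries and the Ubn2 libraries did not.

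Other members of the list were instead lower after Ubn2 depletion than in control ESCs. The tubulin-binding Stmn2 was at 323 and 316 CPM after Hira depletion, 289 and 284 CPM in control ESCs and 179 and 187 CPM after Ubn2 depletion (0.81 ± 0.075). Elavl3, an RNA-binding protein of neurons, was at 27.2 and 27.5 CPM, 31.2 and 29.6 CPM in control ESCs, and 11.1 and 13.4 CPM after Ubn2 depletion (1.16 ± 0.13). The adhesion molecule Cntn2 was at 16.0 and 14.1 CPM, 12.3 and 15.0 CPM in control ESCs, and 4.69 and 5.3 CPM after Ubn2 depletion (1.61 ± 0.17). The same sign of the direct difference therefore covered genes above control in the Hira libraries and genes below control in the Ubn2 libraries. The 2 members higher after Ubn2 depletion were Elavl4 (-1.62 ± 0.47) and the progenitor factor Sox1 (-0.64 ± 0.23, adjusted p = 0.0445). The 8 markers of neural progenitors or neurons summed to 195 and 210 CPM after Hira depletion, 103 and 111 CPM after Ubn2 depletion and 110 and 117 CPM in control ESCs. In bulk RNA, fewer cells of a type and less RNA per cell cannot be told apart.

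Axon guidance genes were closer to the background. Of 58 tested, 9 (15.5%) were higher after Hira and 2 (3.45%) after Ubn2 depletion, with a median of 0.20. The semaphorins Sema6b (11.0 and 13.9 against 3.54 and 3.06 CPM, 1.91 ± 0.20) and Sema6c (33.1 and 29.0 against 13.4 and 16.1 CPM, 1.09 ± 0.13) had the smallest adjusted p, followed by the ephrin receptors Epha1 (1.41) and Epha10 (1.80). Netrin Ntn5 (-1.33) and the ephrin Efnb2 (-0.60) were higher after Ubn2 depletion.

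Potassium channels set membrane potential in excitable cells, and 22 of 54 tested (40.7%) were higher after Hira depletion while Kcne1 alone was higher after Ubn2 depletion (median 0.77). Another 40 of the 94 listed were too low to be tested. Kcnk6, a background channel, was at 16.7 and 16.1 CPM against 3.95 and 5.4 CPM, with 6.08 and 7.17 CPM in control ESCs (1.82 ± 0.18, adjusted p = 3.9e-06). Kcnc4 was at 2.85 and 2.37 CPM against 0.368 and 0.255 CPM (3.05 ± 0.42), and Kcnh3 at 22.7 and 19.8 CPM against 9.01 and 12.2 CPM (1.02 ± 0.15). Of 50 sodium, calcium, chloride and TRP channels tested, 13 (26.0%) were higher after Hira depletion, among them Cacng6 (10.7 and 10.4 against 4.14 and 4.38 CPM, 1.32 ± 0.18). Only 1, the TRP channel Trpm1 (7.05 and 5.69 against 14.8 and 13.5 CPM, -1.13 ± 0.17), was higher after Ubn2 depletion. Many tested channels of both lists were at low levels, where more than 12% of genes were called higher after Hira depletion.

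Among called genes with a mean of at least 1 CPM, the largest differences toward Hira depletion were found at low levels. The sodium channel Scn9a led them, with 2.91 and 2.94 CPM after Hira depletion, 0.184 and 0.102 CPM (4 and 2 counts) after Ubn2 depletion, and 0.584 and 1.04 CPM in control ESCs (4.29 ± 0.47, adjusted p = 1.15e-05). The synaptic vesicle protein Sv2c followed at 5.06 and 6.02 against 0.046 and 0.714 CPM (3.90 ± 0.49). The others were Catsperg1 (3.77), Hsh2d (3.71), the class I gene H2-Q2 (3.58), the sulfotransferase Chst1 (3.50), Papln (3.25), Vrtn (3.11), the heat shock factor Hsf4 (3.05), Kcnc4 (3.05), the synaptic vesicle protein Svop (3.04) and Csmd2 (3.03). The 12 genes did not overlap between the depletions. Nor did 2219 of the 2222 genes called higher after Hira depletion, or 68.5% of all genes tested. The 12 genes held at most 21 counts in a Ubn2 library, and the size of the fold changed with single libraries. With Ubn2 replicate 1 or 2 left out, it was 2.94 or 6.77 for Sv2c, 2.94 or 5.56 for Catsperg1, 3.11 or 4.65 for Hsh2d, 4.58 or 2.62 for Papln and 2.45 or 3.99 for Hsf4, and without replicate 2 it was 4.23 for H2-Q2. H2-Q2 belongs to a family of similar class I genes among which reads can be shared, so its level is uncertain.

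Genes of trophoblast and simple epithelium were also higher after Hira depletion. In the trophoblast list, 8 of 17 tested members (47.1%) were higher after Hira and 1 (5.88%) after Ubn2 depletion (median 1.06, or 0.62 without Ubn2 replicate 1). Keratins made up 4 of the 8. Krt8 was at 56.6 and 48.2 CPM after Hira depletion, 16.6 and 15.2 CPM after Ubn2 depletion and 25.2 and 22.7 CPM in control ESCs (1.73 ± 0.11, adjusted p = 9.13e-08). Its partner Krt18 was at 37.1 and 28.1 CPM against 5.24 and 8.67 CPM, with 13.9 and 12.3 CPM in control ESCs (2.25 ± 0.19, adjusted p = 1.06e-06). Krt19 was at 22.7 and 18.5 CPM against 4.6 and 6.63 CPM, with 12.8 and 12.5 CPM in control ESCs (1.89 ± 0.18). All 3 keratins were above the control libraries after Hira depletion and below them after Ubn2 depletion.

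The X-linked homeobox gene Esx1, expressed in placenta, was at 18.1 and 14.5 CPM against 2.53 and 2.91 CPM, with 4.09 and 4.71 CPM in control ESCs (2.60 ± 0.19, adjusted p = 3.29e-07). Cdx2, the regulator of trophectoderm, was at 1.12 and 0.759 CPM against 0.184 and 0.102 CPM (2.69 ± 0.63, adjusted p = 0.00391), and it was at 0 and 0.22 CPM in control ESCs. Eomes was at 11.0 and 14.2 CPM against 9.06 and 8.16 CPM and was not called (0.55 ± 0.17), although it was called without Hira replicate 1 (0.73) or Ubn2 replicate 1 (0.62). Fgfr2, the FGF receptor of trophoblast, was at 47.0 and 53.1 against 63.2 and 52.2 CPM (-0.20 ± 0.10). The trophoblast genes Tead4, Gata2, Gata3, Hand1, Tfap2c and Peg10 were not called, and Tfap2a was higher after Ubn2 depletion (-1.13). The 8 trophoblast markers summed to 50.9 and 41.3 CPM in the Hira libraries, 40.6 and 43.0 CPM in the Ubn2 libraries and 38.1 and 43.8 CPM in control ESCs, and 3 of the 7 tested were called. Ascl2, 1 of the 3 called markers, was at 1.7 and 1.76 CPM after Hira and 0.644 and 0.867 CPM after Ubn2 depletion (1.2). Its control libraries, at 3.02 and 6.22 CPM, stood above both depletions. The keratins and Esx1 differed widely while most lineage factors did not pass the test.

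Some genes of cell junctions were also higher after Hira depletion. P-cadherin, Cdh3, was at 116 and 120 CPM after Hira depletion and 44.5 and 42.7 CPM after Ubn2 depletion, the latter at the control level of 40.5 and 43.9 CPM (1.45 ± 0.077, adjusted p = 1.26e-08). Esrp1, a splicing factor of epithelia, was at 14.3 and 11.1 CPM against 1.88 and 3.16 CPM (2.35 ± 0.24). Occludin, Ocln, was called at 1.34, and the claudins Cldn3, Cldn6 and Cldn7 at 1.17, 0.84 and 1.18, whereas E-cadherin, Cdh1 (0.077), and Cldn4 (0.32) were not called. The mesenchymal genes Vim (380 and 409 against 262 and 253 CPM, 0.62 ± 0.077) and Mmp2 (43.1 and 33.1 against 15.3 and 19.6 CPM, 1.14 ± 0.14) were higher after Hira depletion as well, Vim falling to 0.57, under the fold threshold, without Hira replicate 2. In the list of the epithelial to mesenchymal transition 8 of 23 (34.8%) were higher after Hira and 2 (8.7%) after Ubn2 depletion, so members of both states were among them.

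Of 45 collagens and laminins tested, 14 (31.1%) were higher after Hira depletion and 3 (6.67%) after Ubn2 depletion (median 0.39). The laminin chain Lamb1 of basement membranes was at 123 and 139 CPM against 75.2 and 72.7 CPM, with 95.5 and 105 CPM in control ESCs (0.83 ± 0.079). Col27a1 was at 11.5 and 10.1 CPM against 1.7 and 2.85 CPM (2.26 ± 0.24). The fibrillar collagens Col3a1 and Col1a2 were higher after Ubn2 depletion and are given with the muscle genes, as is the endothelial cadherin Cdh5.

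Targets of the hypoxia-inducible factors, which induce genes of low-oxygen metabolism, were the list with the largest share of calls to the Hira side in metabolism. Of 24 tested, 13 (54.2%) were higher after Hira depletion, with a median of 0.64. In the other direction edgeR and DESeq2 each called 0 of the 24, and 1 had an unadjusted p under 0.05 in edgeR. Ndrg1 was at 48.0 and 40.5 CPM after Hira depletion and 15.1 and 16.6 CPM after Ubn2 depletion, both under the 53 and 70.4 CPM of control ESCs (1.49 ± 0.12, adjusted p = 5.08e-07). The mitophagy receptor Bnip3 was at 91.1 and 93.6 CPM against 45.0 and 52.1 CPM, with 181 and 208 CPM in control ESCs (0.93 ± 0.085, adjusted p = 2.2e-06). For both genes each depletion lay under the control, and the Ubn2 libraries lay farther from it.

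The collagen hydroxylase Plod2 was at 152 and 140 CPM against 90.0 and 89.5 CPM, with 145 and 128 CPM in control ESCs (0.71 ± 0.074). Carbonic anhydrase Car12 was at 11.1 and 10.2 CPM against 2.25 and 3.06 CPM, with 6.72 and 7.61 CPM in control ESCs (2.02 ± 0.21). The growth factor Vegfa, at 56.1 and 38.2 against 22.7 and 28.1 CPM, was called at 0.91 ± 0.15. Kdm3a, a histone demethylase on the list, went the other way at 123 and 146 against 205 and 185 CPM but under the fold threshold (-0.53 ± 0.087). Pdk1 (167 and 198 against 199 and 199 CPM) and Epo (15.0 and 14.3 against 15.8 and 14.8 CPM) differed by -0.12 and -0.055. Relative to the control mean, the median member stood at -0.27 and -0.54 on the log2 scale in the Hira libraries and at -1.17 and -0.92 in the Ubn2 libraries.

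Promoters of this list were read for the core of the hypoxia response element, ACGTG, on both strands. The sequences are RefSeq promoters of GRCm38.p6, 250 bases before to 50 after the start of each gene, and 18 of the 25 members matched an entry. The core was found in 12 of the 18 (66.7%), compared with 5886 of 27025 genes with a promoter (21.8%). It was found in 6 of 9 members higher after Hira depletion and in 6 of 9 other members, so the match did not separate members that were called from those that were not. The letters also occur inside CACGTG, the E-box, as in the Bnip3 window, where the core reads on both strands. Ankrd37 and P4ha2 hold 2 matches each, and only the first is printed. A match is a description of these letters and not of a bound site. The 6 called members with a match are printed here with up to 10 bases on either side, 5′ to 3′ along the strand of the gene and the core in capitals (CACGT is the core on the opposite strand):
Bnip3 (chr7:138909600-138909624): gcacgcgccgCACGTgccacacgct
Vegfa (chr17:46025360-46025384): agtgcgtgccCACGTcagagagcaa
Ankrd37 (chr8:46000077-46000100): cccagcagtACGTGcctagctcgg
Ddit4 (chr10:59951943-59951967): aacgttgcgaACGTGcgcccggtgc
P4ha1 (chr10:59323270-59323294): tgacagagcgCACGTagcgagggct
P4ha2 (chr11:54100836-54100860): tgcatcgcatACGTGcagcgcgtgg
P4ha1 and P4ha2 lie on the plus strand and the others on the minus strand. Of these genes, Ankrd37 was at 9.32 and 8.44 CPM after Hira and 3.26 and 5.05 CPM after Ubn2 depletion (1.11 ± 0.22), and the prolyl hydroxylases P4ha1 and P4ha2 differed by 0.66 and 0.90.

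Cholesterol synthesis genes were lower in Ubn2-depleted ESCs. Of 25 tested, 24 had a fitted value toward Hira depletion, 10 (40%) were called higher after Hira depletion and only Ebp (4.0%) was called higher after Ubn2 depletion (median 0.41). Insig1, a sterol sensor that restrains the pathway and is itself induced by it, was at 121 and 120 CPM after Hira depletion, 45.3 and 43.6 CPM after Ubn2 depletion and 132 and 122 CPM in control ESCs (1.44 ± 0.076, adjusted p = 1.26e-08). For Insig1 the Hira libraries were close to control and the Ubn2 libraries were well below it.

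The synthase Hmgcs1, an early enzyme of the pathway, was below control in both depletions, and lower after Ubn2 depletion. It was at 174 and 189 CPM against 113 and 108 CPM, with 229 and 224 CPM in control ESCs (0.72 ± 0.073). The promoter of Hmgcs1 holds TCACCCCAC, letters of the sterol regulatory element, which 1 of 17 list members with a promoter entry and 166 of 27025 genes (0.614%) held on either strand. It is shown on the plus strand with the element in capitals:
Hmgcs1 (chr13:119690204-119690232): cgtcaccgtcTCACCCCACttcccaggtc
The element was not in the window of Insig1, which says only that these letters are not in those bases.

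In glycolysis, 6 of 24 genes (25%) were higher after Hira and 1 (4.17%) after Ubn2 depletion, with a median of 0.20. The regulator Pfkfb3 was at 41.4 and 42.0 CPM against 20.8 and 19.3 CPM, with 32.7 and 29.1 CPM in control ESCs (1.06 ± 0.10). The lactate exporter Slc16a3 was at 163 and 183 against 107 and 110 CPM (0.68 ± 0.076) and Pfkp at 620 and 602 against 401 and 403 CPM (0.61 ± 0.076). Aldoc (30.7 and 25.8 against 13.2 and 14.8 CPM, 1.03 ± 0.13) completed the 4 with the smallest adjusted p. Control ESCs held 973 and 1030 CPM of Pfkp, above both depletions. Eno3, the muscle enolase, was the gene higher after Ubn2 depletion (-0.67).

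**Figure D3:**
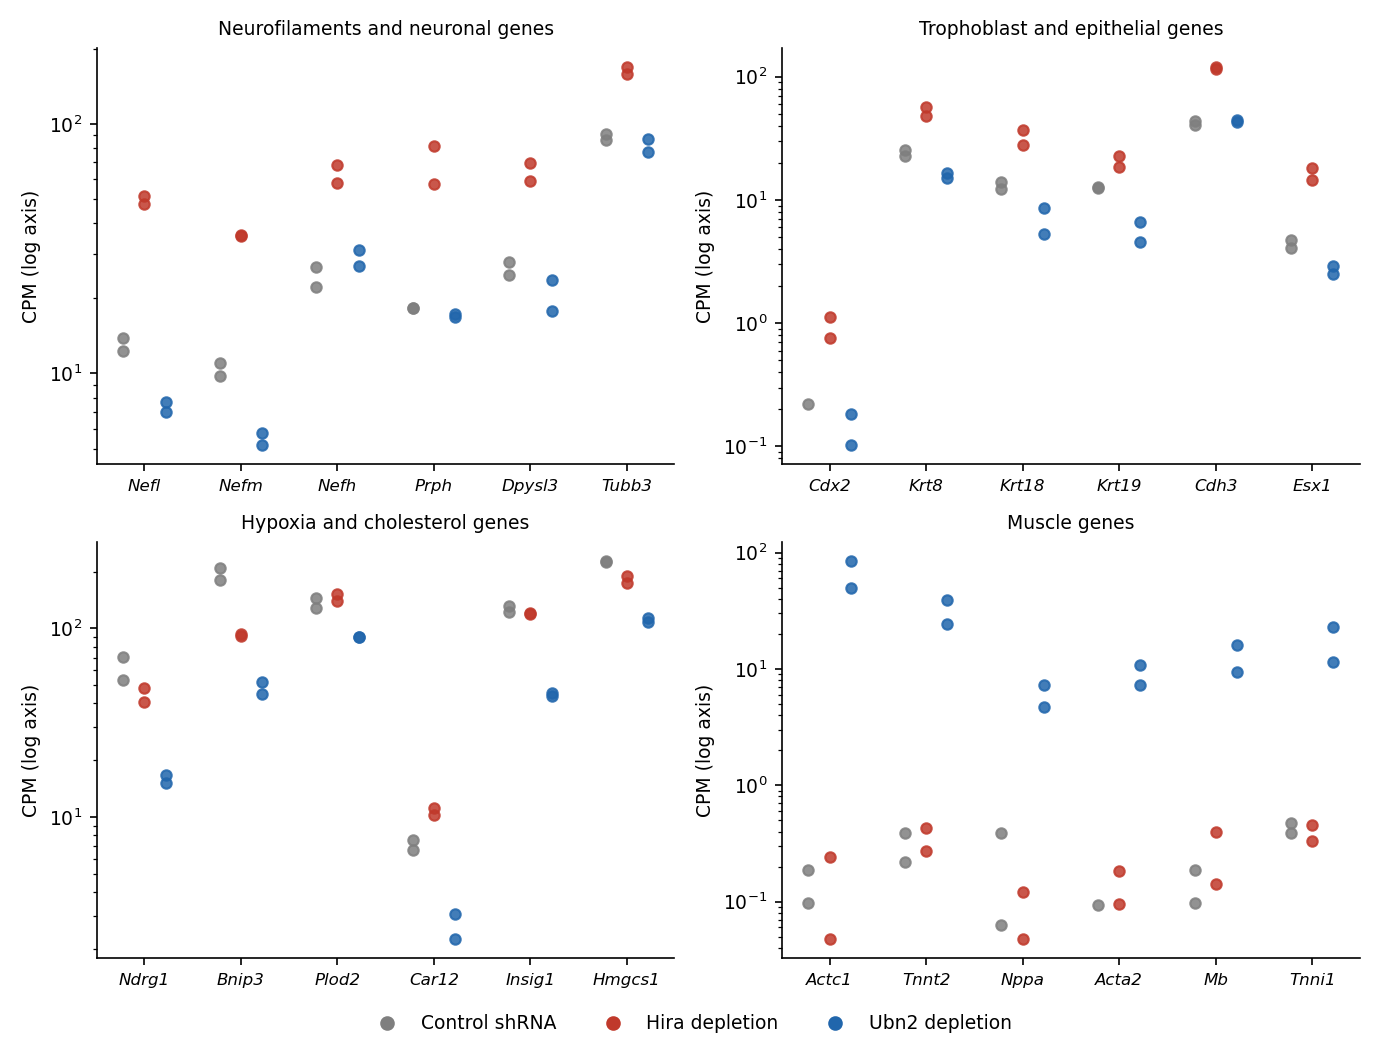
CPM (log axis) of 24 genes in the control, Hira depletion and Ubn2 depletion libraries, 2 points per group; values of 0, as for Cdx2 and Acta2 in control replicate 1, cannot be drawn on a log axis. Neuronal and epithelial genes are highest in the Hira libraries, hypoxia and cholesterol genes are lowest in the Ubn2 libraries, and muscle genes are high in the Ubn2 libraries, replicate 1 above replicate 2.

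Muscle genes made up most of the largest differences toward Ubn2 depletion among called genes with a mean of at least 1 CPM, beside the globin Hbb-bs, the lymphocyte adaptor Sash3 and the collagen Col3a1. In the muscle contraction list 23 of 37 tested members (62.2%) were higher after Ubn2 and 3 (8.11%) after Hira depletion (median -1.24, or -0.39 with at least 10 counts required in every library). Cardiac actin Actc1 was at 85.3 and 49.7 CPM after Ubn2 depletion and 0.242 and 0.0474 CPM (8 and 1 counts) after Hira depletion, with 0.0974 and 0.189 CPM in control ESCs (-8.62 ± 0.36, adjusted p = 1.35e-09). The cardiac myosin heavy chain Myh7 was at 61.9 and 42.2 CPM against 1.27 and 1.52 CPM (-5.23 ± 0.21). Troponin Tnnt2 was at 38.9 and 24.1 CPM against 0.272 and 0.427 CPM (-6.54 ± 0.30), and the myosin light chain Myl3 at 37.3 and 22.7 CPM against 0.363 and 0.285 CPM (-6.47 ± 0.31). For each of these the Hira and control libraries were near the limit of detection or at a low level, and the Ubn2 libraries stood apart.

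Further genes with the largest differences were the natriuretic peptide Nppa (-5.94), the smooth muscle actin Acta2 (-5.88), myoglobin Mb (-5.42) and troponin Tnni1 (-5.39). The sizes for genes with few counts in the Hira libraries changed with single libraries. Without Hira replicate 1 they were -10.3 for Actc1, -6.81 for Nppa, -6.48 for Acta2 and -6.43 for Mb. For genes with 5 counts or fewer in the Hira libraries together, the ratio of pooled counts is given with its exact 95% interval, which covers counting error only. Phospholamban Pln (304 against 2 counts) was 199-fold higher after Ubn2 depletion (54.5 to 1650) and Csrp3 (244 against 2 counts) 159-fold (43.6 to 1320). Col3a1 (228 against 5 counts) was 59.6-fold higher (25.2 to 185) and Sash3 (90 against 1 count) 118-fold (20.6 to 4690). The adult globin Hbb-bs, at 0 in both Hira libraries, was at least 24.7-fold higher against a floor of 3 counts in each library. Myh3, Myh11 and Cnn1 were the 3 list members higher after Hira depletion, at 1.96, 1.73 and 1.88.

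Markers of other cell types moved with this group. The 8 heart muscle markers summed to 20.3 and 31.7 CPM in the Hira libraries, 329 and 213 CPM in the Ubn2 libraries and 34.7 and 42.9 CPM in control ESCs, and 6 of 8 were called, all higher after Ubn2 depletion. The cardiac regulator Nkx2-5 (0.908 and 0.949 against 1.1 and 0.612 CPM) and the atrial light chain Myl7 (3.24 and 4.55 against 3.63 and 3.52 CPM) were not called. The 8 erythroid markers summed to 2.54 and 2.99 CPM against 10.6 and 6.98 CPM, with the globins Hbb-bs and Hba-a1 called and the erythroid regulators Klf1 and Gata1 not. Of 8 fibroblast markers, Col3a1, Col1a2 and Postn were higher after Ubn2 depletion and Thy1 and Pdgfrb after Hira depletion, with sums of 44.2 and 39.4 against 35.6 and 31.6 CPM. Postn and Hbb-bs were at 0 in both Hira and both control libraries. The endothelial cadherin Cdh5 was at 0.0908 and 0.285 against 3.45 and 1.48 CPM (-3.82 ± 0.60, and -3.09 to -4.69 with a Hira library left out, -3.08 without Ubn2 replicate 1).

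These genes shared a ratio between the Ubn2 libraries. In the 23 muscle genes higher after Ubn2 depletion, replicate 1 was above replicate 2 in 22, by a median of 1.55 times (quartiles 1.44 and 1.7). In the 56 genes over 8-fold higher after Ubn2 depletion it was above in 51, by a median of 1.62 times, and 46 of the 56 had a control mean under 0.5 CPM. Of the 56, 14 were on the muscle list. In the 921 genes higher after Ubn2 depletion by 4-fold or less, replicate 1 was above in 534 and the median ratio was 1.03. Without the muscle list and the heart, blood and fibroblast markers, 1014 of the 1042 genes remained, 100 of them over 4-fold and 37 over 8-fold. Only listed genes were left out in this count. Of the 56 genes over 8-fold, 19 were on these lists, fewer than the 51 with replicate 1 above replicate 2. Genes with the same order of the Ubn2 libraries therefore remained. Without Ubn2 replicate 1 the count was 962 and without replicate 2 it was 1004, and the counts of genes higher after Hira depletion were then 1825 and 2074. Whether these reads came from cells of the cultures, and their part in the muscle result, was not tested.

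**Figure D4:**
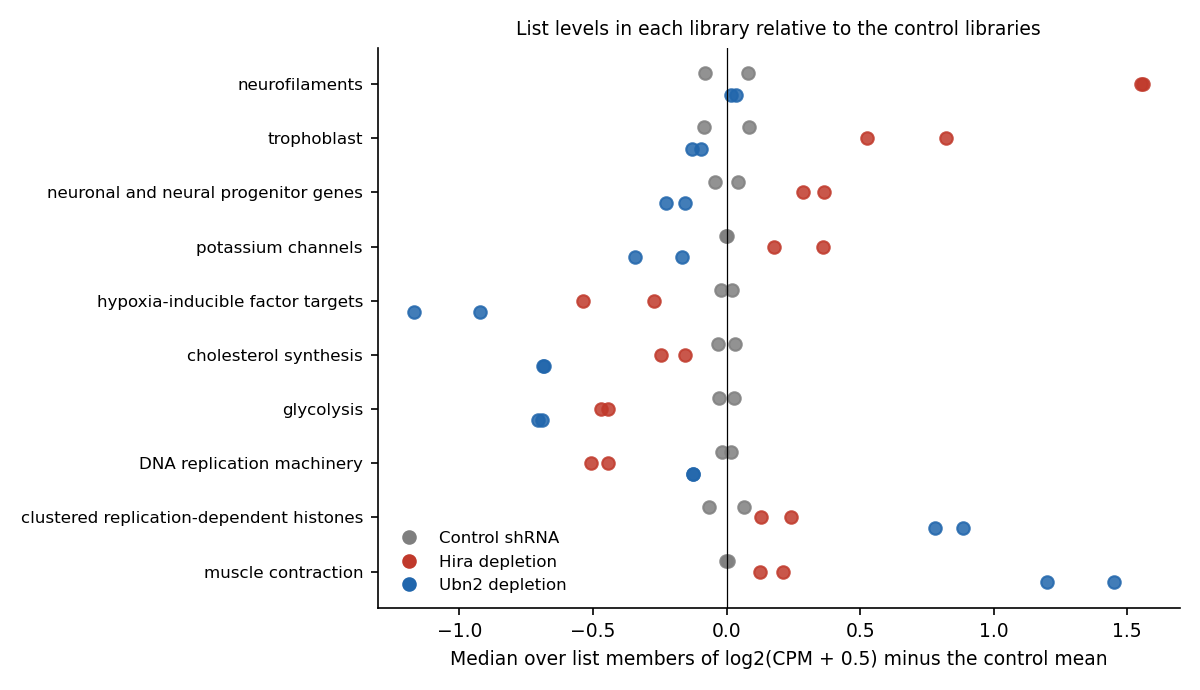
Median over list members of log2(CPM + 0.5) minus the mean of the control libraries (horizontal axis), for 10 lists and each control, Hira depletion and Ubn2 depletion library. Neurofilaments stand at 1.56 and 1.55 in the Hira libraries and near 0 in the Ubn2 libraries, muscle contraction at 1.45 and 1.2 in the Ubn2 libraries, and hypoxia targets under 0 in both depletions.

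Clustered histone genes, which are transcribed during S phase and whose mRNAs mostly end without a poly(A) tail, were higher after Ubn2 depletion. Of 39 tested, 20 (51.3%) were higher after Ubn2 and 1 (2.56%), Hist1h2ae, after Hira depletion, with a median of -0.95. Most were at a low level, and 31 of 70 listed were too low to test. In a library selected for poly(A), such a level covers only the part of these transcripts that was captured. The paper gives total RNA as the input and names no selection step. Hist1h2bc was at 57.0 and 52.1 CPM after Hira depletion, 87.9 and 96.5 CPM after Ubn2 depletion and 31.9 and 37.4 CPM in control ESCs (-0.75 ± 0.082, adjusted p = 1.13e-05). The linker histone Hist1h1c was at 31.6 and 32.0 CPM against 59.5 and 53.5 CPM, with 16.5 and 18.1 CPM in control ESCs (-0.82 ± 0.091). Both genes were above control in each depletion and highest after Ubn2 depletion. Hist3h2a (4.18 and 5.03 against 13.9 and 12.4 CPM, -1.52 ± 0.18) and Hist1h4h (1.39 and 1.28 against 5.65 and 6.32 CPM, -2.14 ± 0.26) had Hira levels close to control. Genes of these clusters are similar in sequence, so reads can be split between copies. Of 11 replication-independent variants, 2 linker histones were higher after Hira depletion, H1f0 (192 and 184 against 108 and 105 CPM, 0.83 ± 0.071) and H1fx (0.77 ± 0.11, and 0.57 without Ubn2 replicate 1).

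Genes that copy DNA gave a single call. Of 45 replication genes, 40 had a fitted value toward Ubn2 depletion (median -0.33), but only the polymerase subunit Pold1 was called, at 89.4 and 88.6 against 143 and 145 CPM, with 167 and 181 CPM in control ESCs (-0.69 ± 0.070, adjusted p = 6.38e-06). In DNA repair 1 of 76 (1.32%) was higher after Hira depletion, the translesion polymerase Rev3l (0.78 ± 0.095), and 2 (2.63%) were higher after Ubn2 depletion, Parp2 (39.3 and 39.3 against 67.9 and 68.6 CPM, -0.79 ± 0.081) and Prkdc (-0.67 ± 0.089). These shares were under the background of all genes. Many repair genes lay at levels where calls were fewer, however. Of genes at 24.2 to 62.7 CPM, 5.71% were higher after Hira and 4.93% after Ubn2 depletion, and above 62.7 CPM 2.05% and 4.26%. Of 24 telomere genes only Tep1 was called (-0.60 ± 0.11), and not without Hira replicate 1 or Ubn2 replicate 2.

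The 12 mitochondrially encoded genes tested all had fitted values toward Ubn2 depletion (median -0.42), and 3 (25%) were called. These were mt-Nd6 (85.2 and 103 against 231 and 168 CPM, -1.08 ± 0.12), mt-Nd5 (666 and 823 against 1330 and 1220 CPM, -0.77 ± 0.097) and mt-Nd1 (768 and 1050 against 1650 and 1510 CPM, -0.79 ± 0.11), all parts of complex I. Relative to the control mean, the median member was at -0.33 and -0.14 on the log2 scale in the Hira libraries and 0.26 and 0.091 in the Ubn2 libraries. It was at 0.008 and -0.54 in the Ubn1 libraries, so this list also differed widely within a group. Of 78 nuclear genes of the respiratory chain 2 (2.56%) were called, both higher after Ubn2 depletion, Ndufa2 (-0.72 ± 0.085) and the muscle isoform Cox6a2. Cox6a2 was at 7.03 and 3.62 CPM in the Ubn2 libraries, replicate 1 above replicate 2 as for most muscle genes above. Among 84 ribosomal protein genes only Rps27 was called (-0.59 ± 0.073), and not without Hira replicate 2 or Ubn2 replicate 1. Small nucleolar RNAs, which a library with length selection covers in part, were called in 1 and 8 of 83 (median -0.35). The 4 with the smallest adjusted p, Snord16a (-0.93), Snora68 (-0.74), Snord89 (1.55) and Snord22 (-0.65), each lost the call with either of 2 libraries left out, and DESeq2 called neither Snord89 nor Snord22.

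The core of pluripotency was not among the differences. Pou5f1 was at 941 and 1030 CPM after Hira depletion, 1100 and 1140 CPM after Ubn2 depletion and 1170 and 1250 CPM in control ESCs (-0.17 ± 0.081, adjusted p = 0.11). Sox2 was at 417 and 447 against 389 and 379 CPM (0.18 ± 0.077, adjusted p = 0.0889), and Nanog at 598 and 525 against 484 and 529 CPM (0.16 ± 0.087, adjusted p = 0.179). The groups of Nanog overlapped, whereas those of Pou5f1 and Sox2 did not, as for 68.5% of all genes tested. Zfp42, Fgf4, Dppa5a and Klf5 differed by 0.13 or less.

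Of the 22 pluripotency genes, 3 (13.6%) were called higher after Hira and 2 (9.09%) after Ubn2 depletion, near the background. Lin28a, a translation regulator, was at 134 and 159 CPM against 72.4 and 73.9 CPM, with 161 and 168 CPM in control ESCs (1.01 ± 0.085, adjusted p = 1.05e-06). Klf4 was at 218 and 242 CPM against 130 and 145 CPM, with 189 and 220 CPM in control ESCs (0.75 ± 0.082). Tfcp2l1, a factor of the naive state, was at 245 and 265 CPM against 450 and 403 CPM, with 350 and 385 CPM in control ESCs (-0.74 ± 0.083), so it was on opposite sides of control. Dppa2 (-0.59 ± 0.081) was also higher after Ubn2 depletion, but not without Hira replicate 1 or Ubn2 replicate 2, and Dppa3 was higher after Hira depletion at under 1 CPM (2.66 ± 0.61). Klf2 (-0.56), Tbx3 (-0.56) and Tdgf1 (0.52) were under the fold threshold.

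Genes of the 2-cell stage embryo were called higher after Ubn2 depletion in 4 of 23 (17.4%), with a median of -0.37. Toward Hira depletion 0 of them were called by edgeR or DESeq2, and 0 had an unadjusted p under 0.05 in edgeR. Zscan4a was at 5.81 and 3.23 CPM after Hira depletion and 6.11 and 10.0 CPM after Ubn2 depletion, with 1.66 and 0.88 CPM in control ESCs (-0.79 ± 0.28, adjusted p = 0.0351). Usp17lb (1.94 and 1.85 against 3.91 and 3.67 CPM, -0.99 ± 0.27), Gm4340 (-1.88 ± 0.58, and -3.65 or -1.28 without Hira replicate 1 or 2) and Zscan4-ps3 (-0.68 ± 0.24) were the others. All 4 lost their call when a library was left out, and the list median was -0.67 without Ubn2 replicate 1 and -0.064 without replicate 2. These families hold near-identical copies, so their counts are uncertain. Relative to the control mean, the median member was at 1.55 and 1.35 on the log2 scale in the Hira libraries and 1.67 and 2.01 in the Ubn2 libraries.

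Of 14 primed and primitive streak genes, 2 were called higher after Hira and 1 after Ubn2 depletion. Of 16 primitive endoderm genes, 4 (25%) and 1 (6.25%) were called, against 12% and 5.61% of all genes. Sox17 and Amn, both called higher after Hira depletion, lay at low levels, where more than 12% of genes were called in this direction. Whether the list exceeds genes of the same level was not tested. In primitive endoderm, Hnf4a was at 3.75 and 3.37 CPM after Hira depletion and 9.06 and 11.7 CPM after Ubn2 depletion, with 8.18 and 9.37 CPM in control ESCs (-1.52 ± 0.20), whereas Amn was called at 1.41. The 2 primed genes called higher after Hira depletion were T, the streak factor Brachyury (0.666 and 0.712 against 0.138 and 0.051 CPM, 2.77 ± 0.72, and 3.63 without Ubn2 replicate 1), and Sox3 (0.77 ± 0.26, and 0.47 without Ubn2 replicate 2, when it was not called). T held 37 counts against 4, a ratio of pooled counts of 7.08 with an exact 95% interval of 2.54 to 27.4. Neither gene was called by DESeq2.

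Imprinted genes, which are expressed from a single parental allele, were called in both directions at high shares, 8 of 34 (23.5%) each way. Toward Hira depletion were Nnat (55.1 and 55.3 against 19.8 and 18.1 CPM, 1.55 ± 0.097), Gnas (237 and 229 against 122 and 125 CPM, 0.93 ± 0.073), the zinc finger gene Plagl1 (1.07), the growth inhibitor Grb10 (1.05) and Cdkn1c (0.83). Toward Ubn2 depletion were the noncoding RNAs of the Dlk1-Dio3 cluster, Mirg (58.3 and 57.2 against 118 and 122 CPM, -1.05 ± 0.074), Meg3 (370 and 372 against 617 and 652 CPM, -0.77 ± 0.078) and Rian (474 and 452 against 728 and 716 CPM, -0.63 ± 0.078). Meg3 was at 333 and 311 CPM in control ESCs, below both depletions. The neighbours Igf2 (2.06 and 1.47 against 11.8 and 9.74 CPM, -2.57 ± 0.23) and H19 (47.6 and 44.2 against 82.2 and 71.6 CPM, -0.74 ± 0.088) were both higher after Ubn2 depletion.

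Germline genes were divided as well, 5 of 33 (15.2%) each way. Tex19.1, a guard against transposons in germ cells, was at 84.6 and 90.7 CPM after Hira depletion and 177 and 172 CPM after Ubn2 depletion, with 52.9 and 44.6 CPM in control ESCs (-0.99 ± 0.072, adjusted p = 2.75e-07). Dnmt3l, the cofactor of de novo DNA methylation, was at 134 and 171 CPM against 307 and 288 CPM, with 274 and 302 CPM in control ESCs (-0.96 ± 0.099, adjusted p = 6.43e-06). Tex19.1 was thus above control in both depletions, and Dnmt3l was below both control libraries after Hira depletion and overlapped them after Ubn2 depletion. Tdrd5, Tdrd1, Taf7l, Stra8 and Piwil1 were higher after Hira depletion, by 0.90 to 1.36. Among 20 genes of DNA methylation and polycomb repression (median -0.35), Ezh1 (0.89 ± 0.091) and Phf19 (1.05 ± 0.11) were higher after Hira depletion, and Dnmt3l, Epop (-0.78 ± 0.097) and Tet3 (-0.87 ± 0.22) after Ubn2 depletion.

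Wnt targets were called in 8 of 16 (50%) toward Hira and 2 (12.5%) toward Ubn2 depletion, with a median of 0.91. Tcf7, a nuclear effector of the pathway, was at 60.3 and 58.4 CPM after Hira depletion and 25.6 and 27.9 CPM after Ubn2 depletion, with 50.7 and 54.6 CPM in control ESCs (1.16 ± 0.092, adjusted p = 5.77e-07). The feedback inhibitors Axin2 (15.0 and 18.6 against 8.09 and 8.36 CPM, 1.03 ± 0.16) and Nkd1 (10.7 and 7.4 against 2.99 and 2.65 CPM, 1.70 ± 0.23) were in the same direction. The cyclin Ccnd1, at 69.1 and 87.6 against 171 and 149 CPM with 88.5 and 98.1 CPM in control ESCs (-1.03 ± 0.10), and the repressor Tcf7l1 (-0.77 ± 0.13) were the members higher after Ubn2 depletion.

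Interferon response genes were called in 7 of 32 (21.9%) toward Hira and 4 (12.5%) toward Ubn2 depletion. Ifitm1 was at 97.4 and 92.9 CPM against 279 and 275 CPM, with 154 and 173 CPM in control ESCs (-1.54 ± 0.074, adjusted p = 4.5e-09), and Samd9l at 6.42 and 7.54 CPM against 1.88 and 2.14 CPM (1.80 ± 0.24). The membrane proteins Ifitm3 (-0.63) and Bst2 (-0.60) went with Ifitm1, each losing its call without either of 2 libraries, and Oas3 (1.73) and Tap2 (1.52) with Samd9l. Of 25 p53 targets, Btg2 (48.8 and 46.2 against 90.4 and 91.2 CPM, -0.93 ± 0.077) and the cell cycle inhibitor Cdkn1a (93.8 and 79.7 against 152 and 153 CPM, -0.81 ± 0.082) were higher after Ubn2 depletion together with Pmaip1 (-0.67). Bbc3 (0.71) and Ddit4 (0.65) were higher after Hira depletion. Of 25 amino acid stress genes, 4 were higher after Hira depletion, led by Atf3 (9.57 and 8.21 against 2.44 and 2.65 CPM, 1.82 ± 0.21).

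Few calls were found in other lists. Clustered protocadherins gave only Pcdha7 (1.0 ± 0.37) among 37 tested, a call that 7 of the alternatives removed, whereas 7 of 23 other cadherins (30.4%) were higher after Hira depletion. In the FGF and ERK list 2 of 22 genes were called, Dusp1 (91.4 and 70.6 against 40.9 and 42.8 CPM, 0.97 ± 0.11) and Ier3 (0.92, and 0.39 without Hira replicate 1, when it was not called). In the Nodal and BMP list 1 of 24 was called, Bmp7 (0.82), but not without Hira replicate 1 (0.50) or Ubn2 replicate 1 (0.58). Of 58 zinc finger genes numbered Zfp900 to Zfp999, Zfp990 (-0.63) and Zfp987 (-0.68) were the only members called, higher after Ubn2 depletion, and both lost the call without Hira replicate 1 (-0.50 and -0.54) or Ubn2 replicate 1 (-0.50 and -0.58). Of 18 Hox genes tested 2 were called each way, and Hoxa9 (1.51 and 0.854 against 0.23 and 0.051 CPM, 3.03 ± 0.65, or 4.45 and 2.39 with a Ubn2 library left out) was the largest. The other 3, Hoxc4 (1.87), Hoxb9 (-0.83) and Hoxb13 (-1.04), were not called by DESeq2 and lost the call with a library left out.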

How the data were processed

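RNA-seq reads of the ESC libraries were trimmed with Trim Galore, aligned to GRCm38 with STAR and counted on genes with featureCounts, as the submitters' processing notes and the paper name them. Versions, strand setting and treatment of reads matching several genes are not given in the sources used here. The authors deposited raw read counts per gene symbol, without normalization, in tables of 55418 symbols that each hold a depletion beside the control libraries. The control values were checked to be the same in the tables (0 differing).

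Counts of the 4 libraries were joined by symbol. Symbols were matched to GENCODE release M21 (55303 to a single gene, 115 to several), and 23592 had no count in the 4 libraries. edgeR 4.0.16 in R 4.3.3 was used with filterByExpr, TMM factors, the quasi-likelihood test and Benjamini-Hochberg adjustment over the 18563 genes tested. A gene was called at adjusted p under 0.05 and fold over 1.5. CPM values use TMM factors of the 8 libraries. With 2 libraries a group, an exact permutation test of a single value cannot go below p = 0.333. Named genes are the HIRA complex list, 6 lineage genes, the 12 called genes with the largest fold each way at a mean of at least 1 CPM without predicted gene models, up to 4 called list members with the smallest adjusted p, and measured members of the neurofilament, pluripotency and marker lists. Other members named in the text are called members of those lists, or members that were not called, and some genes that the rule names are not reported here. The comparison, the lists and the tests were chosen with earlier results of these data known.

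Alternatives were DESeq2 1.42.0, its size factors in edgeR, no filter, a filter of 10 counts in every library, all 8 libraries in the fit, a replicate block, adjusted p alone, and each library left out. On simulated data edgeR recovered 87.9% of 199 genes changed by 1.5 on the log2 scale among 18396 tested, with 6 false calls.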

Additional observations from a re-analysis of the deposited data

Results flagged for a closer look

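The Ubn1 depletion libraries were in none of the comparisons above, beyond a level given for mitochondrially encoded genes. Of the genes named here for their size of difference, Catsperg1, a subunit of a sperm calcium channel, was at 1.82 and 1.27 CPM in them (mean 1.55), above the 0.828 and 0.66 CPM of control ESCs and on the side of the Hira libraries. Csmd2 was at 0.821 and 1.08 CPM (mean 0.948), above 0.487 and 0.314 CPM in control ESCs. Both were noted only because a signal in libraries that the comparison did not use exceeded the control level, and the differences were not tested.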

How the results depend on the processing

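The counts of 2222 and 1042 genes moved by less than 1.5 times under every alternative but the call rule. By adjusted p alone they were 3455 and 3186. DESeq2 called 1530 and 859 genes, DESeq2's size factors in edgeR gave 2170 and 1099, no filter 2420 and 1155, at least 10 counts in every library 1944 and 889, and all 8 libraries in the fit 2210 and 1074. With a library left out they ranged from 1788 to 2298 and from 962 to 1211. The share of calls toward Hira depletion was 64.0% to 68.6% over these settings, adjusted p alone excepted. The labels give both groups replicates 1 and 2 and do not say whether equally numbered libraries were handled together. The correlation between the deviations of equally numbered libraries was -0.0967 over 18563 genes, a value that cannot decide this with 2 libraries a group. The fit with a replicate block called 2206 and 1050 genes. Of 160 named genes, 30 lost their call under at least 1 alternative and 1 gained a call. Of those called in the main fit, 0 changed sign. Sign changes of named genes that were not called were not counted. Depth limited genes under 1 CPM, where a library holds few counts.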

Other observations

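Abundant genes outside the naming rule, at a mean of at least 20 CPM, were read after their values were seen. Toward Hira depletion, the largest difference was in Kif1a, an axonal transport motor, at 77.4 and 60.0 CPM against 7.63 and 10.6 CPM, with 19.3 and 17.1 CPM in control ESCs (2.93 ± 0.15, adjusted p = 1.09e-08, edgeR). Dpysl5, a relative of Dpysl3, was at 41.4 and 37.0 against 6.62 and 7.75 CPM (2.46 ± 0.13). The metallothionein Mt1 was at 439 and 364 against 118 and 146 CPM (1.61 ± 0.11), and Mt2 at 776 and 650 against 208 and 238 CPM (1.69 ± 0.099), although the counts of Mt2 cannot be told apart from those of an overlapping gene model. The nuclear RNA Neat1 was at 484 and 349 against 134 and 138 CPM (1.62 ± 0.12).

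Toward Ubn2 depletion, the heparin-binding growth factor Hbegf was at 15.2 and 16.1 against 43.4 and 40.1 CPM (-1.41 ± 0.11). Cisd3, a mitochondrial iron-sulfur protein, was at 10.3 and 11.4 against 30.1 and 32.2 CPM, with 34.3 and 35.6 CPM in control ESCs (-1.52 ± 0.12). The chromatin remodeller Hells, at 109 and 115 against 303 and 256 CPM, was at 278 and 258 CPM in control ESCs (-1.32 ± 0.087). Acly, which makes cytosolic acetyl-CoA, was at 202 and 216 against 534 and 498 CPM, with 577 and 583 CPM in control ESCs (-1.29 ± 0.080). For Cisd3, Hells and Acly the Ubn2 libraries were near control and the Hira libraries were well below it.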
